A study of Mus musculus with 12 samples.

Results

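The genes Trp53, Cdkn1a and Cdkn2a were followed in 8 lists of ChIP-seq peaks, each gene as 1 fixed window of the mm9 genome. The windows were chr11:69393000-69406000 for Trp53, chr17:29227000-29238000 for Cdkn1a and chr4:88920000-88941000 for Cdkn2a, with lengths of 13001, 11001 and 21001 bp. Of 933917 peaks in the 8 lists, 136 overlapped a window. Chromatin came from mouse embryonic fibroblasts on day 4 of reprogramming to induced pluripotent stem cells, and was precipitated with antibodies to H3K79me1 or H3K79me2, histone H3 carrying 1 or 2 methyl groups on lysine 79. Control libraries came from AF10 fl/fl, OSKM, rtTA cells that had received an empty adenovirus (Ad5-CMV-Empty), and Cre libraries from AF10 -/-, OSKM, rtTA cells that had received Ad5-CMV-Cre. Both groups received doxycycline at 2 µg/mL, which switches on the reprogramming factors OCT4, SOX2, KLF4 and MYC, starting 2 days after the virus. Each group had 2 libraries per mark. All cells grew on DR4 feeder fibroblasts, whose own chromatin may be present in every library.

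Trp53 encodes p53, a transcription factor that answers DNA damage and other stress by arresting or killing the cell. Cdkn1a, a direct p53 target, encodes p21, which inhibits cyclin-dependent kinases. Cdkn2a encodes p16INK4a, an inhibitor of CDK4 and CDK6, and, from another start and reading frame, p19ARF, which stabilises p53 by restraining MDM2. These genes are known as barriers to reprogramming, since their loss lets more fibroblasts become pluripotent. DOT1L methylates H3K79 over transcribed gene bodies, and AF10, the product of Mllt10, is a cofactor that helps it to add the higher methylation states.

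p53 is known to act on Cdkn1a through a site upstream of the gene, and to place this beside the other starts the RefSeq promoters of the 3 genes (build GRCm38.p6, 250 bases before to 50 after a start, 5′ to 3′) are given here. They are of another build than the peaks, so they were not placed against them. In the upstream Cdkn1a start the capitals mark a full p53 site, a pair of adjacent half-sites that together span 20 bases and were allowed 1 mismatch. In the other 4 promoters they mark each CG dinucleotide.
Trp53, chr11:69580109-69580408, plus strand: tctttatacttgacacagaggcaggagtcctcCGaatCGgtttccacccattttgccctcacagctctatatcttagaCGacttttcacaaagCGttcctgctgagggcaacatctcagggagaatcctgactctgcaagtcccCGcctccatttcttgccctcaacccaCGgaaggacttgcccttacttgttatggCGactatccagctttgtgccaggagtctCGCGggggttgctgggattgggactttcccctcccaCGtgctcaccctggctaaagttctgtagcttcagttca
Cdkn1a upstream start, chr17:29090729-29091028, plus strand: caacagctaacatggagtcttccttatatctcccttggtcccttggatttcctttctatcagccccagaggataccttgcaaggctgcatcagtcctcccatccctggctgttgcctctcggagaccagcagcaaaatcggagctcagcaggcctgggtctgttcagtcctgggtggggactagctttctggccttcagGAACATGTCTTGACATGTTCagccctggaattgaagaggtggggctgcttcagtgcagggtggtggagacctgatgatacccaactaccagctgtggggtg
Cdkn1a downstream start, chr17:29093519-29093818, plus strand: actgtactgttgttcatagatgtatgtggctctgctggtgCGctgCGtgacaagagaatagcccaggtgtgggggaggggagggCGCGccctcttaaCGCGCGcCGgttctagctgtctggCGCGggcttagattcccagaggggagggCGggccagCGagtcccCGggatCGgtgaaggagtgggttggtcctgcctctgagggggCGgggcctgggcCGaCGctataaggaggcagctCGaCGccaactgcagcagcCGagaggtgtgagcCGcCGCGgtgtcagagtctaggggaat
Cdkn2a upstream start, chr4:89294570-89294869, minus strand: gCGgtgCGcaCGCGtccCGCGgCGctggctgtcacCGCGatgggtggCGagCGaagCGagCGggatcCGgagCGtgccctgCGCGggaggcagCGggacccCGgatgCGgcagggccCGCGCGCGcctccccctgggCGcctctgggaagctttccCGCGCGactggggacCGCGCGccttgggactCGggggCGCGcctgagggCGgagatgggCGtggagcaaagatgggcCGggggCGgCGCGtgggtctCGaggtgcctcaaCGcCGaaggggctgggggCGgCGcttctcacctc
Cdkn2a downstream start, chr4:89282143-89282442, minus strand: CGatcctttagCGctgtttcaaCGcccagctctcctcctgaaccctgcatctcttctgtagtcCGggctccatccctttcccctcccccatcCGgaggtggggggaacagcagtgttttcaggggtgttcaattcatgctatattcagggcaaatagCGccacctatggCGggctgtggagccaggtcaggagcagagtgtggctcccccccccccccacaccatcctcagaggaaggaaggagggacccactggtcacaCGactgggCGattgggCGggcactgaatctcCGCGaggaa

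The p53 site, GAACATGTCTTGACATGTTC, began 51 bases before the upstream Cdkn1a start. A site of this kind, the same on both strands by its consensus, was found in 29 of 32851 promoters of the same length (0.0883%), and in none of the other 4 shown. The promoters also differed in CG content. The upstream Cdkn2a start, known as that of p19ARF, held 45 CG dinucleotides and the downstream one 12. The downstream Cdkn1a start held 23, the upstream one 2 and the Trp53 start 10, against a median of 7 over all promoters. A match is a property of the letters, and binding of p53 was not measured.

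Peaks had been called in each library on its own, and the lists carry no read counts, so depth is unknown. The measure used here is the covered share, the percentage of window bases inside a peak. Lists differed widely in size, from 12155 to 160119 peaks for H3K79me1 and from 76497 to 194520 for H3K79me2, and the H3K79me1 list of Cre replicate 2 was the smallest of all. Over all windows of the Trp53 length, mean cover was 4.46% and 2.03% in the H3K79me1 controls and 2.28% and 0.0704% in H3K79me1 Cre replicates 1 and 2. It was 0.606% and 2.71% in the H3K79me2 controls and 1.82% and 1.90% in the Cre libraries. By the authors' own values, the fold enrichment of the 136 peaks lay between 1.40 and 3.17, 1 of them reached a −log10 p of 3, and 0 passed a q of 0.05, their highest −log10 q being 0.238. Few peaks of the whole lists passed that q either, 5.76% in H3K79me2 control replicate 1 and at most 0.132% in the other 7 lists. The labels do not say that replicates were separate cultures, so p-values measure the spread between these libraries only. The loss of AF10 itself was not checked in these lists, which name no genes.

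**Figure D1:**
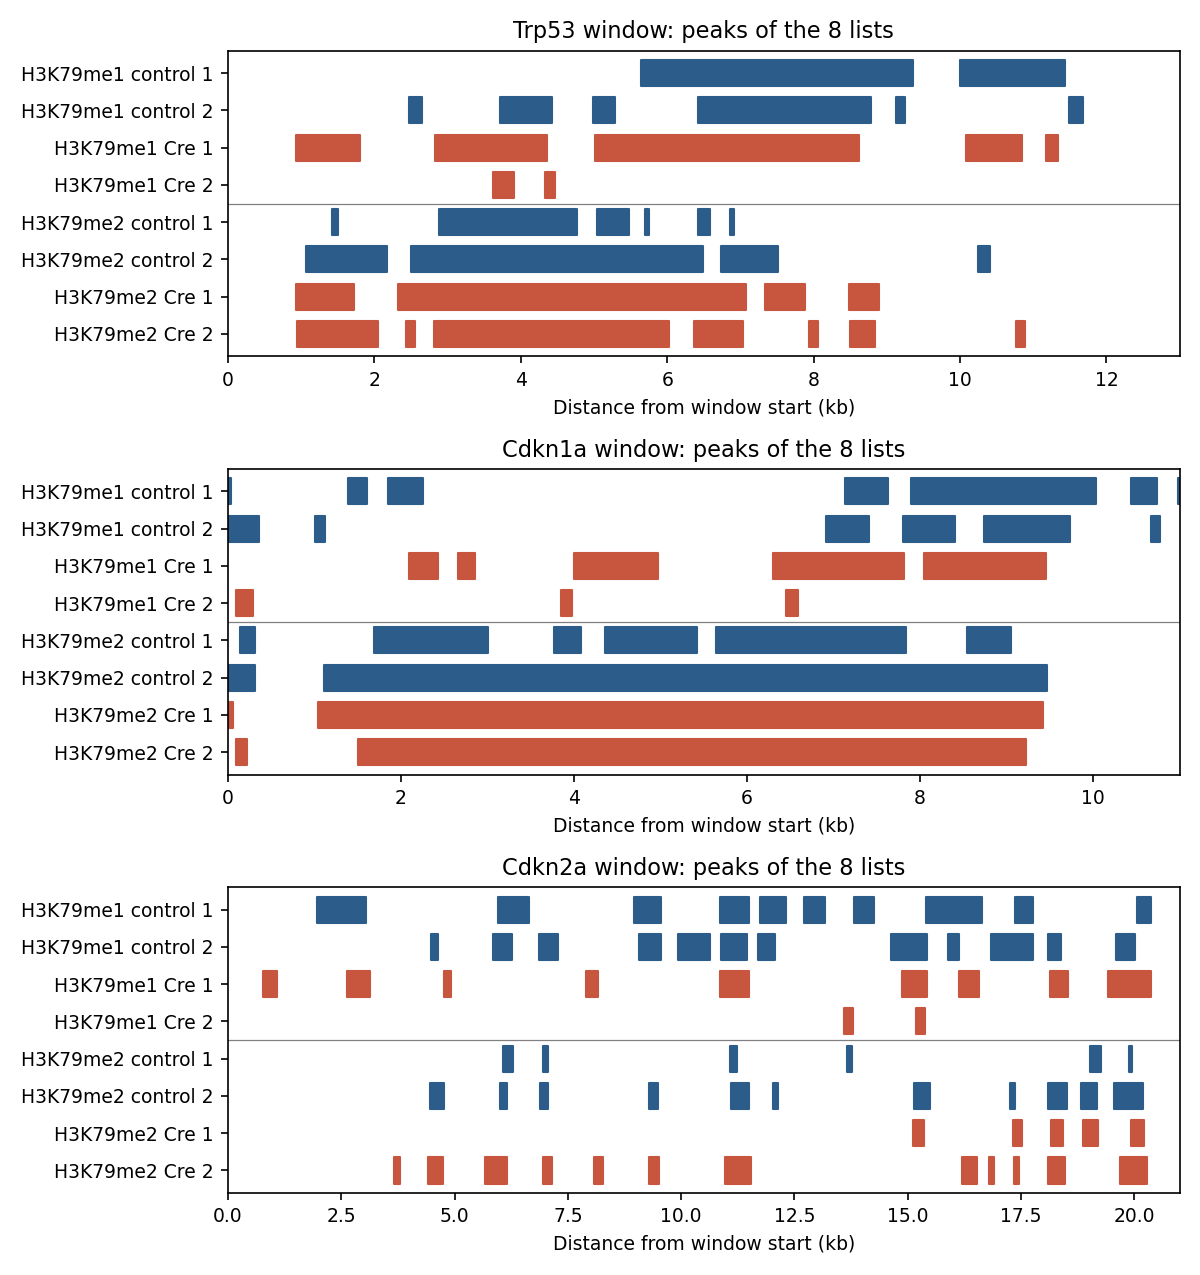
Peaks of the 8 lists along the 3 gene windows. The x axis is the distance from the window start in kb, each row is 1 library, each bar 1 peak, blue control and red Cre. A single H3K79me2 bar of 7721 to 8382 bp spans most of Cdkn1a in 3 of the 4 H3K79me2 libraries, and Cdkn2a shows only short bars.

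Cdkn1a carried the most complete H3K79me2 of the 3 genes, in control and in Cre libraries. H3K79me2 peaks covered 50.8% and 78.9% of its window in control replicates 1 and 2 against 76.7% and 71.3% in Cre replicates 1 and 2. The Cre values were inside the range of the controls. In 3 of the 4 libraries most of this was a single peak, at chr17:29228105-29236467 in control replicate 2, chr17:29228043-29236424 in Cre replicate 1 and chr17:29228501-29236221 in Cre replicate 2. These peaks were 8363, 8382 and 7721 bp wide. Control replicate 1 showed the same stretch as 5 shorter peaks, the widest of 2197 bp, in a list whose median peak was 89 bp. The widest peak of each library was unusually wide for its own list. Only 103 of 194520 peaks were wider in control replicate 2, 117 of 76497 in Cre replicate 1, 52 of 124120 in Cre replicate 2 and 80 of 92184 in control replicate 1. Fold enrichment of the widest peak was 2.42 and 2.32 in control replicates 1 and 2 against 2.75 and 2.48 in Cre replicates 1 and 2, by the authors' values.

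The stretch of Cdkn1a that both controls shared was nearly all inside called peaks after Cre. Of the 5584 bp covered by H3K79me2 in both controls, 96.8% lay in peaks of Cre replicate 1 and 98.2% in peaks of Cre replicate 2. Over the whole lists the same shares were 74.7% and 78.5%. Those lists hold mostly far shorter peaks, and stretches of like width were not compared, here or at Trp53. Cover averaged 64.8 ± 19.9% in the controls and 74.0 ± 3.83% in the Cre libraries (SD, n = 2), a difference of 9.22 percentage points (exact two-sided permutation p = 1, where 2 against 2 allows no p below 0.333). limma, fitted over 11065 windows of this length, gave the same difference with an SE of 29.8 and a Benjamini-Hochberg adjusted p of 1.00, and called 0% of the windows. At the real spread this fit recovered 0 of 200 simulated windows shifted by 30 points, as did each single-mark fit below. A share of 0% called therefore cannot show that cover was unchanged. Each control decided the sign or the call. Without control replicate 1 the difference was -4.83, and without control replicate 2 it was 23.3 with an adjusted p of 0.0218 by limma, in a fit that called 7488 of 9795 windows. Keeping only peaks with a −log10 p of at least 2 moved it to 54.6, because the wide peak of control replicate 2 had 1.94 and those of the Cre libraries 2.57 and 2.17.

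H3K79me1 at Cdkn1a lay toward the far end of the window in the controls. Cdkn1a and Trp53 are read toward higher coordinates, so this is the 3′ side of the gene. H3K79me1 covered 32.8% and 24.3% of the window in control replicates 1 and 2 against 40.4% and 4.24% in Cre replicates 1 and 2. One Cre library was thus above both controls and the other below both. With the window split into 3 equal segments, the last held most of it in the controls, with 75.1% and 48.3% of its bases covered, against 5.45% and 11.5% in the middle one. In Cre replicate 1 the middle segment was covered to 54.8% and the last to 51.7%. The longest stretch common to both controls, chr17:29235742-29236734, lay 8.74 to 9.74 kb into the window, near the end of the wide H3K79me2 peaks. Of the 1881 bp that both controls shared, Cre replicate 1 covered 71.3% and Cre replicate 2 covered 0%. The shares over the whole lists were 49.4% and 2.46%.

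For H3K79me1 at Cdkn1a the group means were 28.5 ± 6.07% and 22.3 ± 25.6% (SD, n = 2), a difference of -6.24 points (exact two-sided permutation p = 1, limma SE 24.5, adjusted p = 0.842 over 18092 windows, of which 0% were called). Without Cre replicate 2 the difference was 11.8. That library left 96.6% of all windows of this length without a peak, and its 3 peaks at Cdkn1a were at most 194 bp wide.

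Trp53 carried H3K79me2 in the first and middle of 3 equal segments of its window, while H3K79me1 of the controls was highest in the middle one. H3K79me2 covered 20.7% and 46.4% of the window in control replicates 1 and 2 against 50.2% and 44.0% in Cre replicates 1 and 2. Control replicate 1 was lowest, and the other control lay between the Cre libraries. The widest peak spanned 1886 and 3994 bp in the controls and 4758 and 3210 bp in the Cre libraries, with fold enrichment of 2.36 to 2.45 in all 4 lists. Its common core, chr11:69395887-69397772, was covered in all 4 libraries. Of the 2593 bp covered in both controls, 100% lay in peaks of each Cre library, against 74.7% and 78.5% over the whole lists. In the last segment of the window H3K79me2 covered at most 6.95% of the bases in any library.

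The difference in H3K79me2 at Trp53 was 13.5 percentage points, from 33.5 ± 18.2% in the controls to 47.1 ± 4.35% in the Cre libraries (SD, n = 2), with an exact two-sided permutation p of 0.667. limma gave an SE of 26.1 and an adjusted p of 0.999 over 9559 windows, of which it called 0%. The value again rested on the controls. Without control replicate 1 it was 0.685, and without control replicate 2 it was 26.4 with an adjusted p of 0.0136 by limma, in a fit that called 7004 of 8397 windows.

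H3K79me1 at Trp53 was highest in 1 Cre library. It covered 39.7% and 29.7% of the window in control replicates 1 and 2 against 53.3% and 3.25% in Cre replicates 1 and 2. The stretch common to both controls was chr11:69399421-69401780, 6.42 to 8.78 kb into the window. Cre replicate 1 covered 88.8% of the shared 2475 bp and Cre replicate 2 covered 0%, while over the whole lists these shares were 49.4% and 2.46%. Cre replicate 1 also held H3K79me1 where the controls had little. It covered 54.7% of the first segment of the window, against 0% and 18.3% in control replicates 1 and 2. H3K79me1 in Cre replicate 1 was above both controls at Trp53 and at Cdkn1a, which was so in 9.77% and 10.3% of all windows of these lengths with a mean cover of at least 10%. At Cdkn2a it was below both, and 8.09% of windows of that length had it above both. For H3K79me2 the order with Cre replicate 1 above both controls was seen at Trp53 alone, against 32.8%, 33.3% and 29.9% of windows of the Trp53, Cdkn1a and Cdkn2a lengths. That comparison was chosen after the values were seen and rests on 1 library. Group means at Trp53 were 34.7 ± 7.04% and 28.3 ± 35.4% (SD, n = 2), a difference of -6.41 points (exact two-sided permutation p = 1, limma SE 30.4, adjusted p = 0.867 over 15517 windows, of which 0% were called), and 18.6 points without Cre replicate 2.

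**Figure D2:**
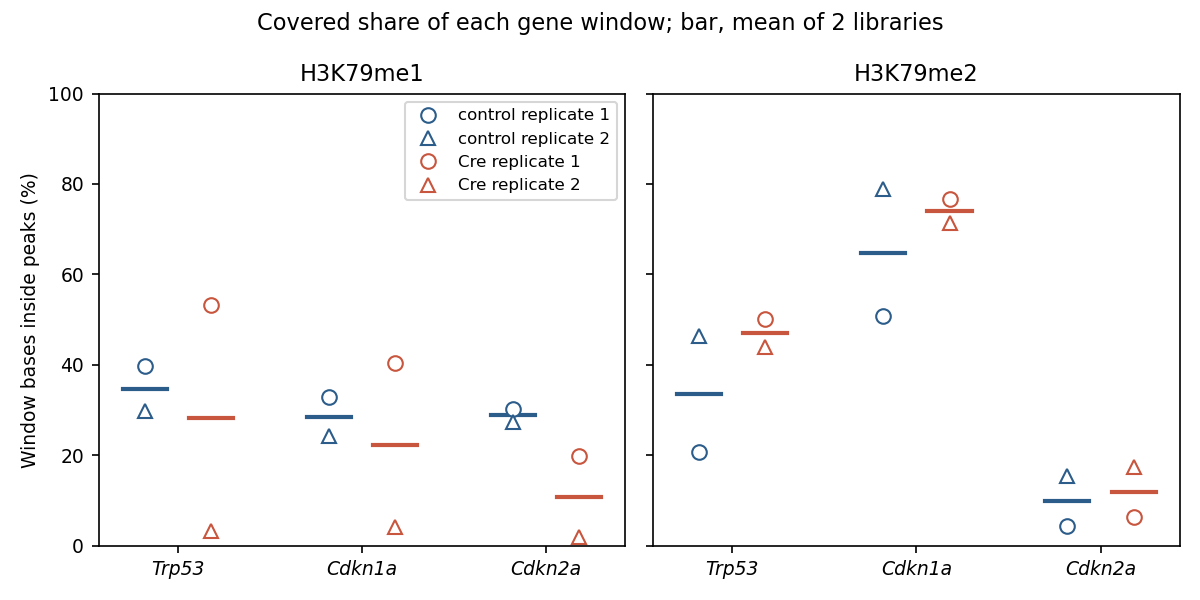
Covered share of each gene window. The y axis is the percentage of window bases inside peaks, points are single libraries (circle replicate 1, triangle replicate 2), and bars are means of 2 libraries. H3K79me1 in Cre replicate 2 is at or below 4.24% in all 3 genes, and H3K79me2 is higher at Cdkn1a than at Trp53 and Cdkn2a in each library.

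Cdkn2a had only short, scattered H3K79me2 peaks, unlike the other genes. Its widest H3K79me1 peak was 1231 and 915 bp in the controls and 939 and 197 bp in Cre replicates 1 and 2. At Cdkn1a these widths were 2128, 993, 1517 and 194 bp in the same order. H3K79me2 covered 4.35% and 15.4% of the window in control replicates 1 and 2 against 6.39% and 17.4% in Cre replicates 1 and 2. The second replicate was the higher one in both groups, and the groups overlapped. The widest H3K79me2 peak was 236 and 640 bp in the controls and 319 and 592 bp in the Cre libraries, and in all 4 it lay within chr4:88938873-88940272, near the end of the window. Cdkn2a is read toward lower coordinates, so that end is its 5′ side. H3K79me2 in Cre replicate 1 was found in the last segment of the window alone, at 19.2% of its bases, while the other 3 libraries held some in every segment. Of the 555 bp shared by both controls, Cre replicates 1 and 2 covered 34.1% and 70.5%, below the 74.7% and 78.5% of the whole lists. The highest −log10 p of any peak in the 3 windows, 3.31, belonged to a peak of 137 bp in control replicate 2 at chr4:88926010-88926146. Control replicate 1 had its own strongest Cdkn2a peak at the same place, chr4:88926078-88926292, with 2.91. In their own lists 0.406% and 22.3% of peaks had a higher −log10 p than these peaks of control replicates 2 and 1. A peak of Cre replicate 2, chr4:88925680-88926150 with 1.63, also reached this place, while Cre replicate 1 had none there.

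H3K79me1 at Cdkn2a had both Cre values under both control values, the only one of the 6 pairings of gene and mark without overlap. It covered 30.3% and 27.4% of the window in control replicates 1 and 2 against 19.9% and 1.82% in Cre replicates 1 and 2. Such an order was common. It held in 44.4% of the 9849 windows of this length with a mean cover of at least 10%, and in 45.0% and 45.2% of windows of the Trp53 and Cdkn1a lengths, so 1 gene of 3 is no more than the background. Both Cre libraries were above both controls at 0 of the 3 genes, as in all but 0.0129%, 0.0111% and 0.0102% of windows of the Trp53, Cdkn1a and Cdkn2a lengths. The means were 28.9 ± 2.05% and 10.9 ± 12.8% (SD, n = 2), a difference of -18.0 points (exact two-sided permutation p = 0.333, the smallest that 2 against 2 allows, limma SE 19.2, adjusted p = 0.647, 0% of windows called). The median over those windows was -19.1. Without Cre replicate 2 the difference was -8.97. With the same number of peaks taken from each list it was -0.062, and with a −log10 p of at least 2 it was -1.06 (exact permutation p = 1 for both). With the replicate number as a block, limma called 6613 of the 9849 windows, Cdkn2a among them with an adjusted p of 0.0216. The peak names give same-numbered libraries a common suffix, but no label says that this number marks a pairing. The stretch shared by both controls came to 2327 bp, and its longest part was chr4:88930889-88931460. Cre replicate 1 covered 25.6% of it and Cre replicate 2 covered 0%, below the 49.4% and 2.46% of the whole lists.

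For H3K79me2 at Cdkn2a the controls averaged 9.86 ± 7.79% and the Cre libraries 11.9 ± 7.77% (SD, n = 2). The difference of 2.02 points was smaller than the spread within either group (exact two-sided permutation p = 0.667, limma SE 8.96, adjusted p = 1.00 over 6273 windows, 0% called), and it was -3.49 without control replicate 1 and -3.47 without Cre replicate 2. No H3K79me2 pairing separated the groups. Both Cre libraries were above both controls in 14.1%, 15.1% and 12.2% of windows of the Trp53, Cdkn1a and Cdkn2a lengths, and below both in 0.188%, 0.127% and 0.128%.

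Over both marks, Cre differed from control by 3.57 percentage points at Trp53, 1.49 at Cdkn1a and -7.99 at Cdkn2a. The exact two-sided permutation test within marks, with 36 arrangements and 0.0556 as its smallest p, gave 0.833, 0.889 and 0.389. The sign at Trp53 and Cdkn1a depended on single libraries. Without H3K79me1 Cre replicate 1 these differences were -8.95 and -7.55, and without H3K79me2 control replicate 1 they were -2.86 and -5.53. At Cdkn1a it was also negative, -0.657, without H3K79me1 control replicate 2. The gap between the Cre effects on H3K79me2 and on H3K79me1, first minus second, was 20.0 ± 37.4 points at Trp53, 15.5 ± 45.7 at Cdkn1a and 20.0 ± 18.1 at Cdkn2a (limma estimate ± SE). Adjusted p-values were 0.673, 0.786 and 0.536, with 0% of windows called. At an unadjusted p under 0.05 limma had 312 of 12599, 384 of 14652 and 166 of 8019 windows of the 3 lengths for this gap. For H3K79me1 it had 46 of 15517, 67 of 18092 and 18 of 9849, and for H3K79me2 0 of 9559, 11065 and 6273. Every one of these counts was under 0.05 of its windows, and none included a window of these genes. Without H3K79me1 Cre replicate 2 the gap was -5.09 at Trp53 and -2.62 at Cdkn1a. With every library kept, the medians of the gap over all windows tested were 26.7, 27.4 and 24.8, so the 3 genes lay below the medians of their windows.

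Within each H3K79me2 library the order of cover was Cdkn1a, then Trp53, then Cdkn2a. Even the lowest Cdkn1a value, 50.8%, was above the highest of Trp53, 50.2%, by a narrow margin, and the lowest of Trp53, 20.7%, was above the highest of Cdkn2a, 17.4%. This order depended on the peaks kept. With a −log10 p of at least 2, H3K79me2 control replicate 2 had 30.7% at Trp53, 1.52% at Cdkn2a and 0% at Cdkn1a. The other H3K79me2 libraries kept the order. For H3K79me1 the genes were closer. Trp53 was first in 3 libraries, and in Cre replicate 2 Cdkn1a was first. The H3K79me1 means over 4 libraries were 31.5%, 25.4% and 19.9% for Trp53, Cdkn1a and Cdkn2a, with ranges over libraries that overlapped for all pairs.

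Ranking each window among all windows of its length in the same library allows for list size in part. At Cdkn1a, 0.0437% and 0.226% of windows had more H3K79me2 in control replicates 1 and 2 against 0.232% and 0.201% in Cre replicates 1 and 2. At Trp53 these shares were 0.578%, 1.29%, 0.897% and 0.883%, and at Cdkn2a 3.41%, 4.99%, 6.81% and 3.27%. The 3 genes therefore held separate ranges. For H3K79me1 the shares at Cdkn1a were 5.49% and 3.01% in the controls against 1.53% and 0.355% in Cre replicates 1 and 2. Both Cre libraries thus ranked Cdkn1a higher than both controls did, although Cre replicate 2 covered only 4.24% of it. Trp53 showed the same order, with 4.28% and 1.88% in the controls against 0.696% and 0.550%. This order was chosen after the values were seen, and 24.0%, 24.9% and 21.0% of windows of the Trp53, Cdkn1a and Cdkn2a lengths with a mean cover of at least 10% shared it. In Cre replicate 2 a window with any peak ranked high, since 96.1% of windows of the Trp53 length held none. At Cdkn2a the groups overlapped, with 5.66% and 1.92% in the controls against 3.88% and 1.14% after Cre.

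**Figure D3:**
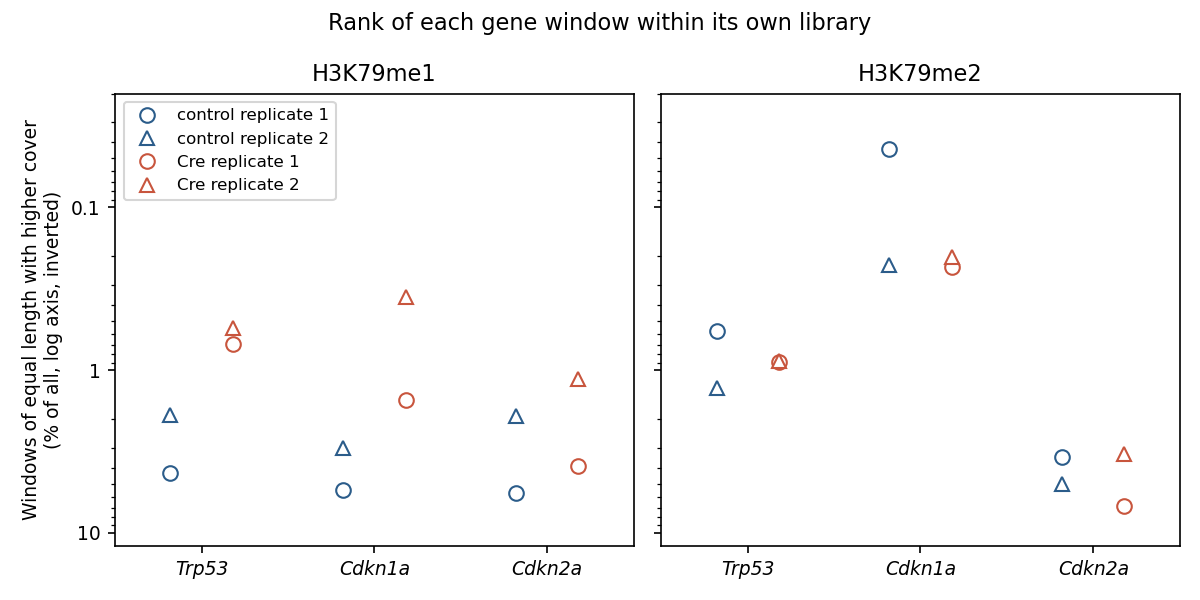
Rank of each gene window within its own library. The y axis, logarithmic and inverted, is the percentage of all windows of the same length with a higher covered share, and points are single libraries as labelled. Cdkn1a is the highest-ranked gene in all 4 H3K79me2 libraries, at 0.0437% to 0.232%.

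The positions of the marks differed in part between libraries. Mean positions of covered H3K79me2 bases were 4.25 to 4.79 kb into the Trp53 window and 5.10 to 5.28 kb into the Cdkn1a window over 4 libraries. Those of H3K79me1 were 5.94 to 8.40 kb and 6.47 to 7.58 kb over 3 libraries, and 3.97 and 3.14 kb in Cre replicate 2, which had 2 and 3 peaks there. With all 8 lists, the ranges of mean position of the marks overlapped at every gene. All 8 lists reached 4949, 5282 and 3919 windows of the 3 lengths, and in 9.88%, 9.33% and 13.6% the ranges stayed apart. H3K79me1 Cre replicate 2 was then left out, a choice made after the values were seen. The ranges then stayed apart at Trp53 and Cdkn1a. They also did so in 26.8% and 24.4% of the 8600 and 9872 windows of these lengths that the other 7 lists reached. At Cdkn2a the ranges overlapped, while they stayed apart in 35.3% of such windows of its length. This comparison concerns mean positions only, not the bases that the marks cover. The controls had 46.1% and 49.0% of their Trp53 H3K79me2 inside H3K79me1 peaks of either control, which covered 50.4% of the window. After Cre 79.5% did so in replicate 1 and nearly as much in replicate 2, where H3K79me1, almost all of it from replicate 1, covered 54.2% of the window. The reverse shares, H3K79me1 inside H3K79me2, were 36.4% and 54.6% in control and 77.2% and 100% after Cre, the last over 422 bp, while H3K79me2 covered 47.1% and 54.6% of the window in the groups. At Cdkn1a 75.2% and 80.4% of H3K79me1 lay in H3K79me2 in the controls against 99.4% and 83.7% after Cre, beside H3K79me2 cover of 78.9% and 77.9% of the window. The control shares of H3K79me2 at Trp53 and of H3K79me1 at Cdkn1a were thus close to the cover of the other mark. Those of H3K79me1 at Trp53 lay on either side of it. H3K79me2 at Cdkn1a lay inside H3K79me1 to 32.7% and 38.3% in control libraries against 53.9% and 56.9% in Cre libraries, where H3K79me1 covered 40.0% and 43.4%. No base of any window was inside peaks of all 8 libraries.

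Cover was low or absent in the next window on the higher side of Cdkn1a and Trp53. The window after Cdkn1a held 0% H3K79me2 in all 4 libraries and at most 3.80% H3K79me1, and the window after Trp53 at most 2.14% and 2.25%. On the lower side the marks went on. The window just before Trp53, where RefSeq lists Wrap53 as the neighbouring protein-coding gene, was covered by H3K79me1 to 58.9% and 37.8% in control replicates 1 and 2 but to 29.3% and 0% in Cre replicates 1 and 2. There both Cre libraries were below both controls, an order found in 45.0% of the windows of this length with a mean cover of at least 10% and absent from the Trp53 window beside it. The window before Cdkn1a held 25.7% and 22.8% H3K79me1 in the controls against 10.7% and 0% after Cre, also without overlap, as in 45.2% of the windows tested. Further from Cdkn1a the groups did overlap. The second window before it held 74.0% and 36.2% in the controls against 47.0% and 0% after Cre, and the third 49.4% and 14.1% against 25.3% and 0%. H3K79me2 in the window before Trp53 was 3.21% and 22.5% in control and 21.7% and 20.3% after Cre. At Cdkn2a the marks continued on the higher side, toward Cdkn2b, the next protein-coding gene in RefSeq order, which encodes the related inhibitor p15INK4b. H3K79me1 there was 35.4% and 15.3% in control and 14.0% and 0% after Cre, again the order of 44.4% of the windows tested, and H3K79me2 was 1.51%, 12.7%, 17.5% and 8.81% in the same order of libraries. Among the 7 windows of each gene, the gene's own had the highest H3K79me2 cover in 4 of 4 libraries at Trp53 and Cdkn1a, and in 3 of 4 at Cdkn2a. For H3K79me1 it was highest in 2 of 4 libraries at Trp53, 1 of 4 at Cdkn1a and 3 of 4 at Cdkn2a.

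**Figure D4:**
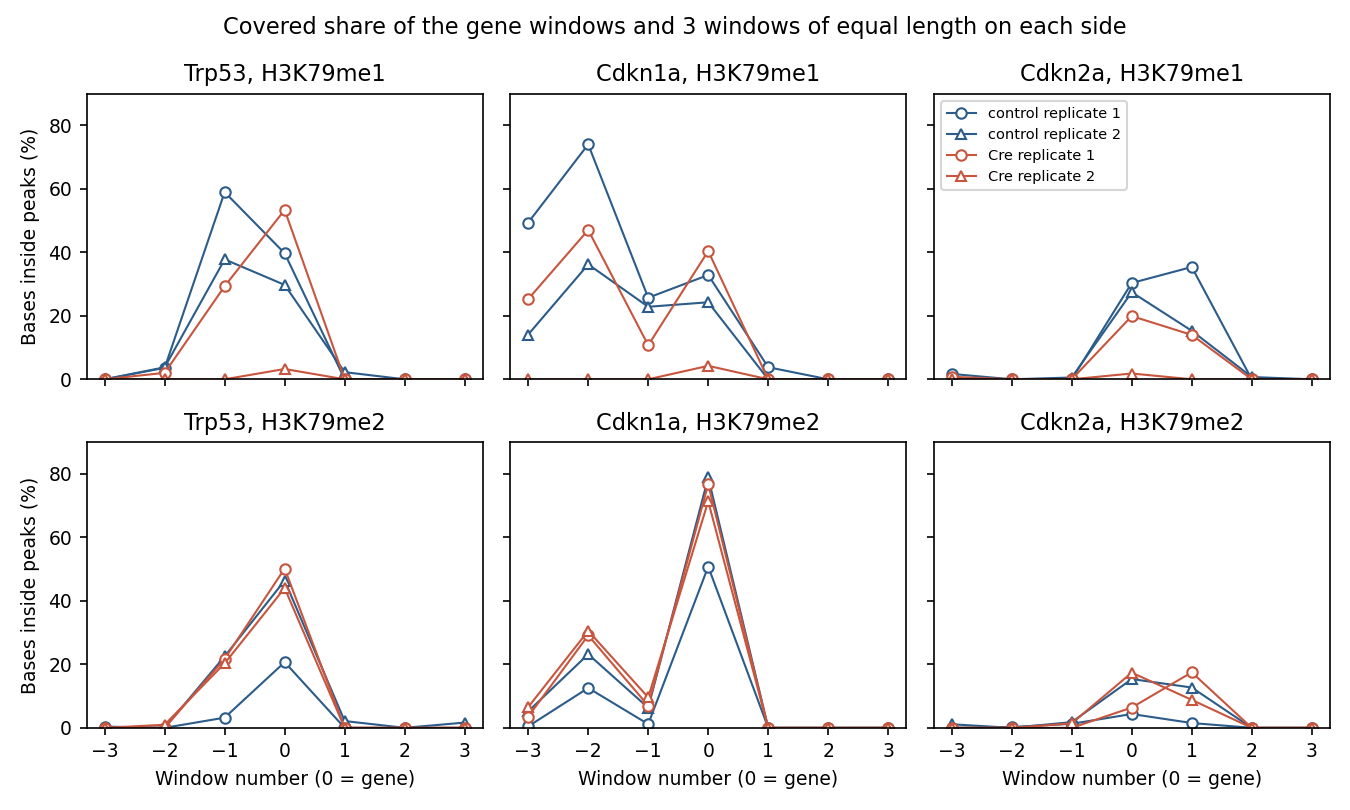
Covered share in the gene window (0) and in 3 windows of equal length on each side, numbered along the chromosome, with 1 line per library. H3K79me2 reaches 50.8% to 78.9% in the Cdkn1a window and 0% in the next one, and H3K79me1 of the controls reaches 58.9% and 37.8% just before Trp53.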

How the data were processed

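ChIP-seq of H3K79me1 and H3K79me2 gave the 8 libraries, grouped by their titles. Per the labels' protocols, 7.1 µg of chromatin sheared to 200 to 400 bp was mixed with 133 ng of human 293T chromatin as a spike-in and precipitated with 5 µg of antibody. The submitters' processing notes list the builds hg19 and mm9 and the tools MACS2, Bowtie2, SAMtools 1.2, bedtools, HOMER and deepTools, without saying what each did. Peak names in the deposited lists read as broad calls against input, their p cutoffs being 1e-04 (H3K79me2) and 0.001 (H3K79me1). Most deposited −log10 p-values are lower than these settings allow for a single peak's p, so that column was used only to rank and filter peaks. Each deposited list gives the authors' score, −log10 q-value, −log10 p-value and fold enrichment (a ratio). The score was 10 times −log10 q without its decimals. Spike-in scaling is not given in the sources used here, and the 4 RNA polymerase II libraries were not analysed here.

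The 3 genes, their windows and the tests were chosen with earlier results of these data known. All 3 were named. Windows were read from base 1, ends included. Exact permutation tests were two-sided. limma (empirical Bayes with a trend) was fitted to all windows of a gene's length with a mean cover of at least 10%, on a grid that holds the gene's window, with Benjamini-Hochberg adjustment and a threshold of 0.05. Tested on simulated data, it recovered 0 of 200 windows shifted by 30 points at the real spread, and 195 to 200 with the spread multiplied by 0.1, in each of the 6 fits. Promoters and gene order are from RefSeq (GRCm38.p6), where all 3 genes matched, and no mm9 annotation was used, so no other gene of the pathway was tied to peaks. Versions were limma 3.58.1 in R 4.3.3, and Python 3.11.15 with SciPy 1.17.1, NumPy 2.4.6, Matplotlib 3.10.9 and pandas 2.3.3.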

Additional observations from a re-analysis of the deposited data

How the results depend on the processing

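Of 122 alternatives of the exact tests, 101 kept their direction and 21 changed it, and the lowest exact permutation p was 0.167. Direction does not cover size: H3K79me1 at Cdkn2a went from -18.0 to -0.062 with equal peak numbers and to -1.06 with a −log10 p of at least 2, and H3K79me2 at Cdkn1a from 9.22 to 54.6 with that minimum and to 1.17 with peaks within 1 kb merged. At H3K79me1 the Trp53 difference became 1.10 with a −log10 p of at least 2 and 1.19 with equal peak numbers. For Cdkn1a it became 8.20 with equal peak numbers and 0.13 as log2 cover relative to the library mean. On that log2 scale H3K79me2 at Cdkn1a became -0.0053. H3K79me2 at Cdkn2a became -2.53 and -0.326 with a −log10 p of at least 2 and 3. Over both marks, a window extended by 5 kb gave -1.48 at Trp53 and -1.70 at Cdkn1a, merging peaks within 1 kb gave -9.41 at Cdkn1a, and equal peak numbers gave 0.138 at Cdkn2a. The cause of these changes was not tested.

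With each library left out, H3K79me1 ran from -31.5 to 18.6 at Trp53, -24.3 to 11.8 at Cdkn1a and -27.0 to -8.97 at Cdkn2a. H3K79me2 ran from 0.685 to 26.4, -4.83 to 23.3 and -3.49 to 7.53, in limma to 7.52 at Cdkn2a, where the window was under the minimum cover in 2 of these fits. Both marks together ran from -8.95 to 16.1, -7.55 to 10.5 and -12.5 to -3.47, and the interaction of Cre and mark from -5.09 to 45.0, -2.62 to 33.5 and 11.0 to 29.1. The number of windows limma called ran from 0 to 7004, 0 to 7488 and 0 to 4937 for H3K79me2 and from 0 to 81, 0 to 538 and 0 to 0 for the interaction, and was 0 for H3K79me1. A lone library is assumed there to vary like the other group.

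Quantile normalization, which removes differences between whole libraries, turned limma's H3K79me1 differences to 18.1, 21.8 and 6.15 and those of H3K79me2 to -0.32, -7.47 and -2.06 at Trp53, Cdkn1a and Cdkn2a, with 20 H3K79me1 windows of the Trp53 length called.

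With the replicate number as a block, limma called 8855 of 15517, 9371 of 18092 and 6613 of 9849 H3K79me1 windows of the Trp53, Cdkn1a and Cdkn2a lengths. Of these, 8826, 9351 and 6600 were lower after Cre. Cdkn2a at -18.0 was called with an adjusted p of 0.0216, as were most tested windows of its length. Trp53 and Cdkn1a had 0.503 and 0.525. For H3K79me2 the block called 0 windows of each length. Same-numbered libraries correlated at 0.352, 0.330 and 0.407 for H3K79me1 and at -0.277, -0.249 and -0.320 for H3K79me2. A crossed replicate block for H3K79me2, added after seeing the data, called 0 windows. The peak names give same-numbered libraries a common suffix, but no label says what it marks. The block changed no other call. No window of Trp53 or Cdkn1a kept a peak at a −log10 p of at least 3 in either mark, so that setting gave no value there.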
